A study of Mus musculus with 3 samples.

Results

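The Rab genes encode the largest branch of the Ras-related small GTPases. The 59 members described here were every protein-coding gene of the deposited tables whose symbol is Rab, a number of 1 or 2 digits, and at most 1 letter and 1 further digit, a rule on symbols and gene class alone. They were 59 of 21901 genes with at least 1 protein-coding transcript, in tables of 55536 gene rows. Chromatin-bound RNA was measured by ribosomal-RNA-depleted total RNA-seq in primary macrophages of C57BL/6J mice grown from bone marrow. The cells had received Lipid A, the TLR4-activating part of lipopolysaccharide, at 100 ng/ml for 12 h, then 12 h of washout, then the same dose again for 60 min. All 3 libraries, called replicates 1, 2 and 3, share this treatment, and no untreated or once-treated group was analysed here. Each value is therefore a level in cells treated again and not a response. The labels call the 3 samples biological replicates but give them 1 donor entry, and separate animals or cultures are not named. Any p-value thus measures only the spread between these samples, which may be technical.

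A Rab protein cycles between a GTP-bound form on a membrane and a GDP-bound form in the cytosol. Exchange factors load GTP, GTPase-activating proteins end the active state, and GDP dissociation inhibitors keep the inactive, prenylated protein soluble. Each membrane of the secretory and endocytic routes carries its own set of Rabs, which recruit tethers, motors and other effectors. In macrophages the family is known for phagosome maturation, for the traffic of TLR4 and for the release of cytokines. RNA of the chromatin fraction is rich in transcripts still being made or not yet exported, so its levels need not follow those of mature mRNA.

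Gene counts summed to between 12602702 and 17222239 per library, and the Rab genes held 0.158, 0.151 and 0.151% of them in replicates 1, 2 and 3. The macrophage label was met by its markers, of which 12 of 12 had a TPM of at least 10 in every library (TPM is a transcript abundance divided by length and scaled to the same total in each library). The libraries were made from 1000, 250 and 500 ng of RNA in replicates 1, 2 and 3. Replicate 2, with the least RNA, stood apart: the 12 fibroblast and stromal markers summed to 0.31, 937 and 3.28 TPM in replicates 1, 2 and 3, and 12 of 12 were highest in replicate 2. Of these, Col1a1 was at 0, 223.84 and 0.44 TPM. Markers of neutrophils (8) and of T and B cells (8) were undetected, with at most 3 counts in each library, while epithelial markers summed to at most 1.14 TPM and those of mast cells and megakaryocytes to at most 8.29 TPM. The median protein-coding gene also stood higher in replicate 2, at 0.26, 0.96 and 0.30 TPM. In such bulk samples, fewer cells of a type and less RNA per cell cannot be told apart, and the part of the stromal signal or of the starting RNA in any Rab level was not tested.

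Splice junctions that stay unspliced in an annotated retained-intron transcript are shown for Rab14 and Rab4b, as examples of what such a transcript can hold. Each intron lies whole inside 1 transcript of that class, between coding exons. Most transcripts of the class in the Rab genes tested below hold no whole intron of a coding transcript by the rule used. Each junction was read from the GENCODE M21 transcripts (GRCm38, − strand for both genes) as 20 exon and 30 intron bases, with the first bases (GT) or the last bases (AG) of the intron in capitals. The Rab14 junctions lie at chr2:35183363-35183412 and chr2:35182428-35182477 for an intron of 945 bases, and at chr2:35183714-35183763 and chr2:35183404-35183453 for one of 320 bases. Those of Rab4b lie at chr7:27176128-27176177 and chr7:27175874-27175923, at the ends of an intron of 264 bases.
Rab14 longer intron, donor: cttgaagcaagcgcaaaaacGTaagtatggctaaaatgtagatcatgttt
Rab14 longer intron, acceptor: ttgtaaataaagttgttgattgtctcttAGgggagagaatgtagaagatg
Rab14 shorter intron, donor: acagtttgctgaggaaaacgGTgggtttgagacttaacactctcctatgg
Rab14 shorter intron, acceptor: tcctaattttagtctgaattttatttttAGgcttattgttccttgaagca
Rab4b intron, donor: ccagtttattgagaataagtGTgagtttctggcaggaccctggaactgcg
Rab4b intron, acceptor: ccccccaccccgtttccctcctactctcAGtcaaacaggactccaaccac

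Of the 59 Rab genes, 32 (54.2%) had a TPM of at least 1 in every library, where 39.1% of the protein-coding genes did. A TPM of at least 10 in every library was reached by 17 Rab genes (28.8%), against 16.8% of protein-coding genes. At the other end, 6 Rab genes were undetected, with at most 3 counts in each library, against 37% of protein-coding genes. These were Rab3c, Rab9b, Rab17, Rab25, Rab33a and Rab42, and the first 3 had no count in the aligned tables. The median Rab gene stood at 2.80, 6.15 and 2.22 TPM in replicates 1, 2 and 3, a mean of 3.72 ± 2.12 (SD, n = 3), and at 2.51 TPM without replicate 2. The levels of the family summed to 718, 976 and 833 TPM. When members were ordered by mean TPM, the 3 libraries' ranges did not overlap for 1 of 58 neighbouring pairs, Rab14 above Rab12, so that the order of all other neighbours lay within the spread between libraries.

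**Figure D1:**
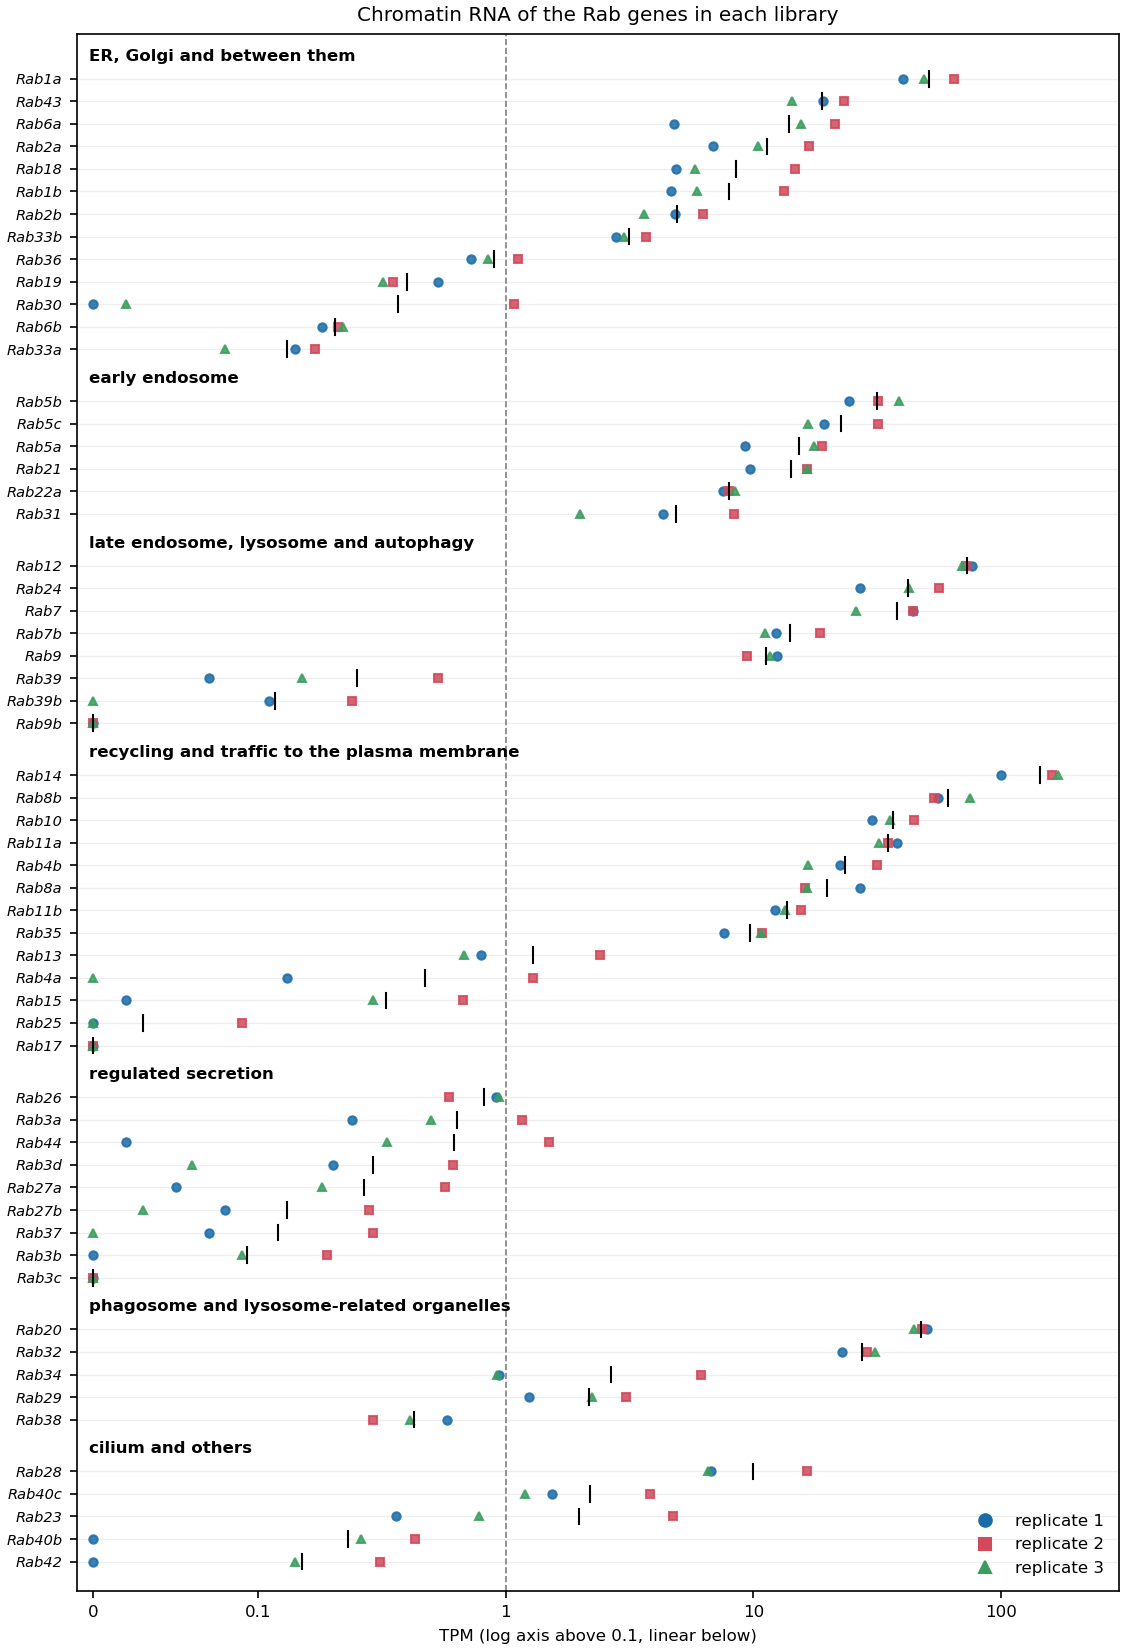
TPM of the 59 Rab genes in each library (points; the black bar is the mean of 3 libraries), grouped by the compartment each member is best known for, on an axis that is logarithmic above 0.1; the dashed line marks a TPM of 1. Rab14 is highest, at 100.5 to 170.99 TPM, while all 9 members known for regulated secretion have a mean below 1 TPM.

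Members that work between the endoplasmic reticulum and the Golgi were 13, of which 8 had a TPM of at least 1 in every library. Rab1a, which drives the first step of transport from the endoplasmic reticulum to the Golgi (ENSMUSG00000020149.17, mm10 chromosome 11, 20201432 to 20226856, + strand), led at 40.29, 64.54 and 48.81 TPM in replicates 1, 2 and 3. Rab43 followed at 19.09, 23.33 and 14.34 TPM. Rab6a, which acts in retrograde traffic at the Golgi, stood at 4.80, 21.44 and 15.66 TPM. Replicate 1 was the low library for Rab6a, and replicate 2 was highest for all 3 genes. Rab2a, of the intermediate compartment, had 6.87, 16.78 and 10.47 TPM, and Rab18, of lipid droplets and the endoplasmic reticulum, 4.88, 14.79 and 5.81 TPM. Replicate 2 was the highest library for 11 of the 13 members. It was also highest for 77.1% of protein-coding genes that averaged 1 TPM or more, a level that some of the 13 did not reach. The lowest were Rab33a, undetected with 2, 2 and 1 counts, and Rab6b, the paralog of Rab6a that is best known from neurons, at 0.18, 0.21 and 0.22 TPM.

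All 6 early endosomal members had a TPM of at least 1 in every library. The 3 Rab5 genes, whose products drive the fusion of early endosomes, were all detected at several TPM or more. Rab5b (ENSMUSG00000000711.3, chromosome 10, 128677175 to 128696264, − strand) had 24.30, 31.85 and 38.72 TPM in replicates 1, 2 and 3. Rab5c had 19.37, 31.88 and 16.64 TPM, and Rab5a had 9.25, 18.91 and 17.60 TPM. Every library of Rab5b lay above every library of Rab5a, while the range of Rab5c overlapped both. Rab21, which carries integrins through endosomes, had 9.72, 16.49 and 16.51 TPM. Rab22a, a regulator of endosomal recycling, was among the steadiest members at 7.58, 7.95 and 8.45 TPM. Its relative Rab31 was among the less steady, at 4.30, 8.35 and 2.00 TPM.

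Late endosomal, lysosomal and autophagy members split into 5 genes at a TPM of at least 1 in every library and 3 at no more than 0.53 TPM in any. Rab12, which directs receptors to lysosomes and takes part in autophagy (ENSMUSG00000023460.13, chromosome 17, 66494512 to 66519729, − strand), had 76.91, 72.59 and 69.93 TPM, the smallest relative spread of any member with a mean TPM of at least 1 (coefficient of variation 0.0482, n = 3). Rab24, an autophagy Rab, had 27.10, 56.52 and 42.48 TPM. Rab7, the Rab of fusion between late endosomes and lysosomes, had 44.03, 44.04 and 25.99 TPM, with replicate 3 as the low library. Rab7b, known for sorting from late endosomes to the Golgi and for limiting TLR4 signalling, had 12.32, 18.61 and 11.19 TPM. Rab9, which returns mannose-6-phosphate receptors to the Golgi, had 12.46, 9.45 and 11.71 TPM. Rab39 reached 0.07, 0.53 and 0.15 TPM, its paralog Rab39b 0.11, 0.24 and 0 TPM, and Rab9b had no count.

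The 13 members of recycling and of traffic to the plasma membrane held the largest summed level of any role, at 294.42, 373.88 and 372.08 TPM. Rab14, which acts between the Golgi, endosomes and phagosomes (ENSMUSG00000026878.17, chromosome 2, 35180205 to 35201120, − strand), had the highest level of the family at 100.5, 161.71 and 170.99 TPM. Every library of Rab14 lay above every library of all other members. Rab8b, of transport from the Golgi to the cell surface (ENSMUSG00000036943.9, chromosome 9, 66843664 to 66919687, − strand), had 55.81, 53.74 and 74.94 TPM. Rab10, known to bring TLR4 to the macrophage surface, had 30.13, 44.69 and 35.63 TPM. Rab11a, the Rab of the recycling endosome, had 37.93, 35 and 32.28 TPM, with a coefficient of variation of 0.0806 (n = 3). Replicate 2 was not the highest library for Rab14, Rab8b or Rab11a. Rab4b, of rapid recycling, had 22.33, 31.73 and 16.68 TPM, and Rab35, of the same route, had 7.63, 10.82 and 10.73 TPM. The epithelial Rab17 and Rab25 were undetected, as were most epithelial markers.

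None of the 9 members known for regulated secretion had a TPM of at least 1 in every library of the aligned tables. In the authors' kallisto tables, made without that alignment, 5 of the 9 did, namely Rab3b, Rab3c, Rab26, Rab27b and Rab37. Their low level, summed over all transcripts, thus depends on the table. For Rab3b and Rab37, 1 noncoding transcript each held most of the kallisto mean, 1.94 of 2.01 and 1.47 of 1.56 TPM. Their highest protein-coding transcripts had 0.04 and 0.06 TPM there, against 2.33 for Rab3c, 0.54 for Rab26 and 0.995 for Rab27b. The values that follow are those of the aligned tables. Rab26, of secretory granules, was highest at 0.91, 0.59 and 0.94 TPM from 14, 9 and 16 counts. It shares 698 bases with Traf7 on the same strand, at 88.62, 95.32 and 66.81 TPM. Rab27a, which brings lysosome-related organelles and exosomes to the plasma membrane, had 0.05, 0.57 and 0.18 TPM from 2, 21 and 7 counts. Rab44, a large granule-associated Rab, had 0.02, 1.5 and 0.33 TPM from 1, 13 and 15 counts. Replicate 2 had the highest TPM for 7 of the 9, although for Rab44 its count was not the highest. Among protein-coding genes at a higher level, with a mean TPM of at least 1, the share was 77.1%. Among the Rab3 genes, which are best known from synaptic and endocrine exocytosis, Rab3a had 0.24, 1.16 and 0.50 TPM and Rab3d had 0.20, 0.61 and 0.06 TPM. Rab3b reached 4 counts in 1 library, and Rab3c had none.

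Of the 5 members tied to phagosomes and lysosome-related organelles, Rab20 and Rab32 stood far above the others. Rab20, an interferon-inducible Rab of maturing phagosomes (ENSMUSG00000031504.6, chromosome 8, 11453518 to 11478710, − strand), had 50.36, 47.89 and 44.62 TPM in replicates 1, 2 and 3. Rab32, which serves lysosome-related organelles and host defence (ENSMUSG00000019832.5, chromosome 10, 10545002 to 10558265, − strand), had 22.74, 28.91 and 31.01 TPM. Their libraries lay close together and without a high value in replicate 2. Rab29, a Rab that recruits the kinase Lrrk2, had 1.24, 3.06 and 2.22 TPM, and Rab38, the pigment-cell paralog of Rab32, had 0.58, 0.29 and 0.41 TPM. Rab34, known from phagosomes and cilia, had 0.94, 6.15 and 0.92 TPM, from 9, 90 and 9 counts. Rab34 exceeded 1 TPM in replicate 2 only. The last 5 members include the ciliary genes Rab28, at 6.76, 16.50 and 6.57 TPM, and Rab23, a regulator of Hedgehog signalling, at 0.36, 4.76 and 0.78 TPM. All 5 were highest in replicate 2, as were 77.1% of protein-coding genes that averaged 1 TPM or more. Some of the 5 averaged less.

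Paralogs were compared within each library as log2 ratios of TPM plus a pseudocount of 0.1, over 16 pairs. In 12 pairs the sign was the same in 3 of 3 libraries. With 3 libraries an exact sign-flip test cannot give a two-sided p below 0.25, so signs and sizes are given without a call. Rab32 exceeded Rab38 by 5.07, 6.22 and 5.93 on the log2 scale in replicates 1, 2 and 3, and Rab6a exceeded Rab6b by 4.13, 6.12 and 5.62. Rab4a lay far below Rab4b in every library, at 0.13, 1.29 and 0 TPM against 22.33, 31.73 and 16.68 TPM. With 2, 19 and 0 counts for Rab4a, the size of that gap depends on the pseudocount in replicates 1 and 3. In replicate 2, the library with stromal RNA, it was −4.52. Rab4a shares 29303 bases with Gm20388, a protein-coding gene on the same strand at 0.15, 8.72 and 2.01 TPM. Whether reads of Rab4a were assigned to Gm20388 was not tested. Rab9 was at least 155-fold higher than Rab9b, from the library with the smallest bound when 3 counts per library are allowed for Rab9b. That bound holds for the aligned tables only: in the kallisto tables Rab9b had 254 to 399 counts, and Rab9 exceeded it 9.42-fold.

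Smaller gaps that kept their sign in 3 of 3 libraries included Rab1a over Rab1b, by 2.79 ± 0.46 (log2, SD, n = 3), and Rab8b over Rab8a, with Rab8a at −1.05, −1.73 and −2.18 relative to Rab8b in replicates 1, 2 and 3. Rab7 exceeded Rab7b by 1.43 ± 0.35, and Rab11a exceeded Rab11b by 1.35 ± 0.24. In 4 pairs the sign differed between libraries, namely Rab5a with Rab5c, Rab5b with Rab5c, Rab22a with Rab31, and Rab27a with Rab27b. For Rab5b against Rab5c the values were 0.33, −0.0014 and 1.21, so that the members could not be ordered. The gaps changed in the kallisto tables, to 0.38 ± 0.30 for Rab7 over Rab7b, 2.08 ± 0.43 for Rab11a over Rab11b and −0.75 ± 0.25 for Rab8a relative to Rab8b. There, Rab5b lay below Rab5c by a mean log2 of −0.59 ± 0.37 and Rab27a lay below Rab27b by −1.62 ± 0.37.

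**Figure D2:**
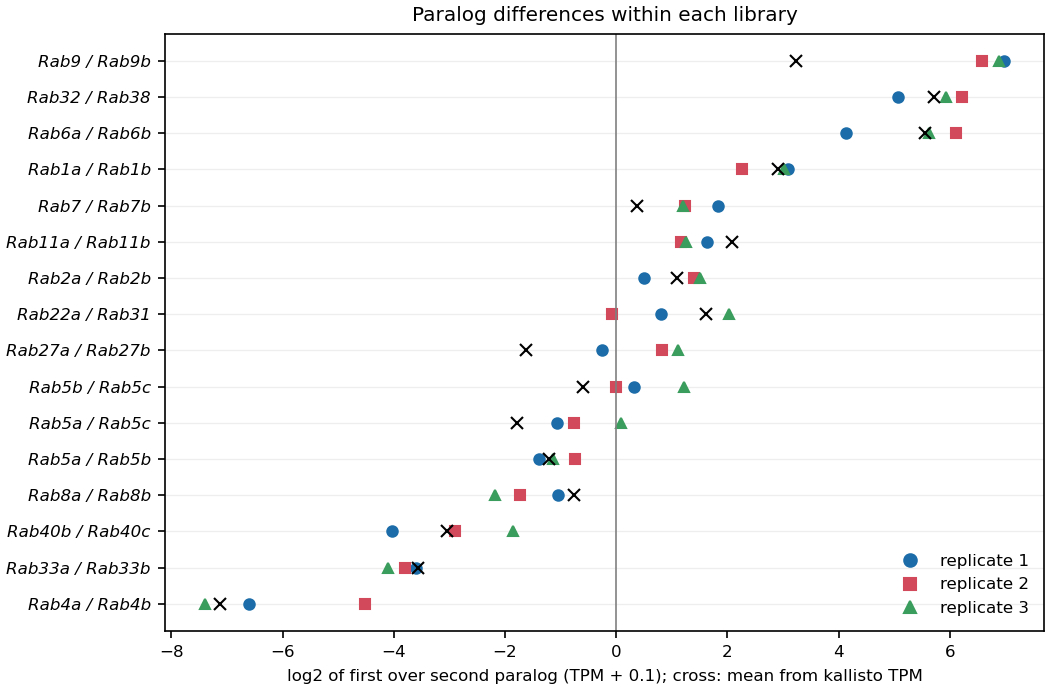
Log2 ratio of TPM (each plus 0.1) between the members of 16 paralog pairs in each library (coloured points), with the mean from the kallisto tables as a cross. In 12 pairs the 3 libraries lie on the same side of 0, and the crosses of Rab5b with Rab5c and of Rab27a with Rab27b lie on the other side of 0 from the mean of the points.

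Retained-intron transcripts, which the annotation classes as noncoding because they run into an intron, held 29.0% of the summed Rab TPM. Protein-coding transcripts held 62.6%, processed transcripts without a reading frame 7.11% and transcripts subject to nonsense-mediated decay 1.26%. Of the 32 Rab genes with a TPM of at least 1 in every library, 23 had most of their mean TPM in protein-coding transcripts and 6 in retained-intron transcripts. In Rab1a, 57.9% lay in processed transcripts, and in Rab11b and Rab12 no class held the majority. The same shares over all protein-coding genes are not given here, so these values do not set the Rab genes apart. Of the 59 members, 26 have both retained-intron and protein-coding transcripts, and 10 of these reached a summed mean TPM of 5 and were tested. The log2 ratio of the classes was fitted with limma over all 4311 genes that passed the same filter and tested against 0.

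Called at a Benjamini-Hochberg adjusted p under 0.05 were 3 Rab genes toward retained-intron transcripts, where 24.3% of the 4311 genes were, and 2 toward protein-coding transcripts, where 25.6% were. The median ratio of the 10 was 0.19 on the log2 scale, against −0.06 over all genes tested. Rab14 had 81.68, 129.42 and 141.24 TPM in retained-intron transcripts and 14.10, 30.26 and 28.70 TPM in protein-coding ones. Every library held several times more of the former, a log2 ratio of 2.30 (SE 0.21, limma, adjusted p = 0.00366). Rab4b had 14.63, 20.91 and 11.03 TPM against 2.17, 4.92 and 3.48 TPM, a log2 ratio of 2.13 (SE 0.28, limma, adjusted p = 0.00719). The retained-intron side was again higher in 3 of 3 libraries. Rab8a had 23.23, 9.98 and 12.18 TPM against 3.71, 5.22 and 4.29 TPM, a log2 ratio of 1.67 (SE 0.39, limma, adjusted p = 0.025).

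The Rab8a result was the least stable of the 5. The limma adjusted p was 0.0534 without replicate 1, 0.0917 without replicate 3 and 0.112 without the filter, in a range of 0.00613 to 0.112 over 8 alternatives. On expected counts, which are not divided by length, the sign turned to −2.07 (limma, adjusted p = 0.0189). The retained transcript of Rab8a is 542 bases long and its coding transcript 4550 bases.

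Rab11a and Rab28 lay on the protein-coding side. In Rab11a, retained-intron transcripts had 4.03, 5.13 and 2.96 TPM and protein-coding ones 26.68, 23.76 and 23.52 TPM, a log2 ratio of −2.61 (SE 0.24, limma, adjusted p = 0.00376). In Rab28 they had 1.26, 4.13 and 1.73 TPM against 5.51, 12.37 and 4.84 TPM, a log2 ratio of −1.68 (SE 0.23, limma, adjusted p = 0.00754). For both genes 3 of 3 libraries showed this direction, and the call of Rab28 was lost on expected counts (limma, adjusted p = 0.0867, range 0.00144 to 0.0867). The protein-coding sum of Rab11a came from different transcripts between libraries. Rab11a-206, of 462 bases, had 14.2, 0 and 0 TPM in replicates 1, 2 and 3. Rab11a-208, of 2336 bases, had 10.94, 22.06 and 21.79 TPM. The other 5 tested members were Rab12, Rab5b, Rab5a, Rab6a and Rab24, with ratios from −0.65 to 0.45 and no call. Rab6a showed opposite signs between libraries, at −1.14, 0.23 and 0.79. Without replicate 2 the same 5 genes were called in the same directions. On expected counts Rab12, Rab5b and Rab6a were called toward protein-coding transcripts, at −1.63, −0.77 and −3.13 (limma, adjusted p = 0.0041, 0.0238 and 0.00257). With kallisto TPM, Rab12 was called toward retained-intron transcripts, at 1.08 (limma, adjusted p = 0.00546). Rab5a and Rab24 had no call in any of the 8 alternatives.

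**Figure D3:**
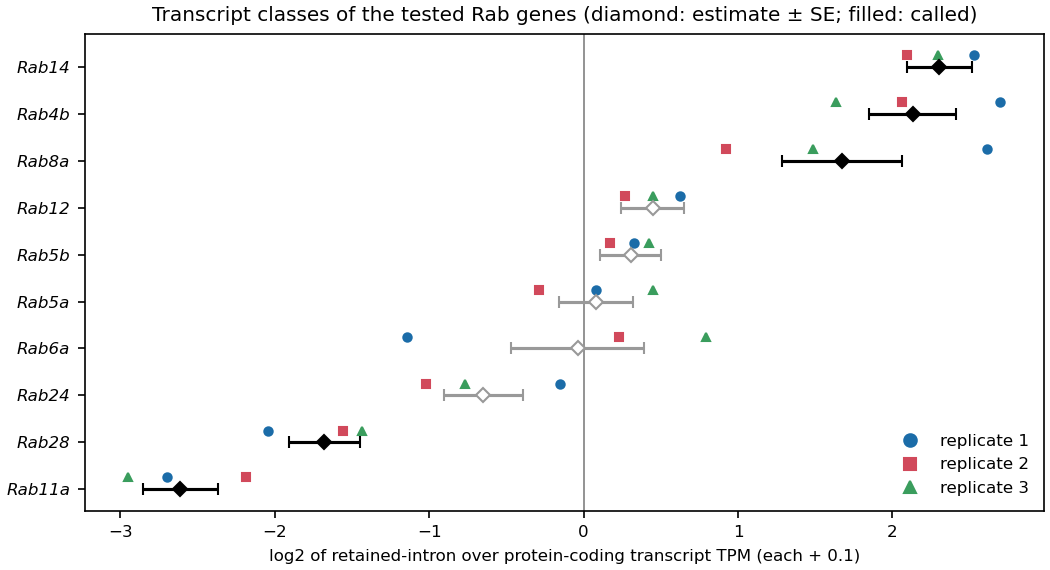
Log2 of retained-intron over protein-coding transcript TPM (each plus 0.1) for the 10 tested Rab genes: diamonds with bars are the limma estimate ± SE (filled where the adjusted p is under 0.05), and coloured points are the 3 libraries. Rab14, Rab4b and Rab8a lie to the right of 0 and Rab28 and Rab11a to the left, each with 3 of 3 libraries on that side.

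The retained-intron class is mixed. The 10 tested members have 21 such transcripts. Of these, 5 contain a whole intron of a coding transcript with at least 20 bases on both sides. The other 16 do not, and where they start or end was not examined. In Rab14 the transcript that spans both introns shown above, Rab14-202, had 13.73, 19.03 and 18.22 TPM, a mean of 17.0 TPM that lay below the 24.4 TPM of the protein-coding transcripts. The other 6 retained-intron transcripts, which contain no whole intron by this rule, held the rest of the class mean of 117 TPM. In Rab4b the spanning transcript, Rab4b-205, had 10.42, 15.43 and 9.30 TPM and held most of the class. All 3 retained-intron transcripts of Rab24 span a whole intron, and none of those of Rab8a, Rab11a and Rab28 does. All 13 combinations of such a transcript and an intron started with GT and ended with AG in the orientation of the gene.

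The order of the family depended on the transcript class. Counted over protein-coding transcripts alone, Rab14 moved from rank 1 to rank 8, at a mean of 24.4 ± 8.91 TPM (SD, n = 3), and Rab12 from rank 2 to rank 5, at 26.6 ± 2.04 TPM. Rab8b, Rab20, Rab7 and Rab10 then held ranks 1 to 4. Rab8b, Rab20 and Rab10 have 1 annotated transcript each, so that RNA from their introns has no annotated retained-intron transcript to be assigned to.

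The spread between libraries was taken over the 35 Rab genes whose TPM averaged 1 or more. Their median coefficient of variation was 0.275, against 0.350 for the 9994 protein-coding genes under the same filter. Replicate 2 was the highest library for 24 of the 35 (68.6%), against 77.1% of protein-coding genes. The median log2 of replicate 2 over the mean of the other libraries was 0.49 for the Rab genes and 0.62 for protein-coding genes. On counts scaled by TMM factors, which centre most genes of a library, the Rab median was −0.016 and that of protein-coding genes 0.044. The Rab median lay below that of protein-coding genes under both scalings.

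Rab23, Rab34 and Rab13, a Rab of tight junctions, had the widest gaps, at log2 2.86, 2.60 and 1.58 for replicate 2 over the mean of the other libraries. They reached a mean TPM of 1 only through replicate 2, so that a gap of this direction was built into their selection. In the kallisto tables the same gaps were 0.38, 0.33 and 0.81, and replicate 3 was the highest library for Rab34. The summed fibroblast and stromal markers stood at 937 TPM in replicate 2 and at most 3.28 TPM in the other libraries, and their part in the values of these 3 genes was not tested. With the filter set on replicates 1 and 3 instead, chosen after seeing the data, 32 Rab genes remained. Of these, 0 stood at least 2-fold above the protein-coding shift of 0.56 in replicate 2, where 6.69% of protein-coding genes did, and 0 at least 2-fold below it, where 3.7% did. Rab8a was lowest, at −0.42 before the shift was taken off. Members with little difference included Rab12, Rab22a, Rab11a, Rab20 and Rab5b, whose log2 values lay between −0.02 and 0.02.

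**Figure D4:**
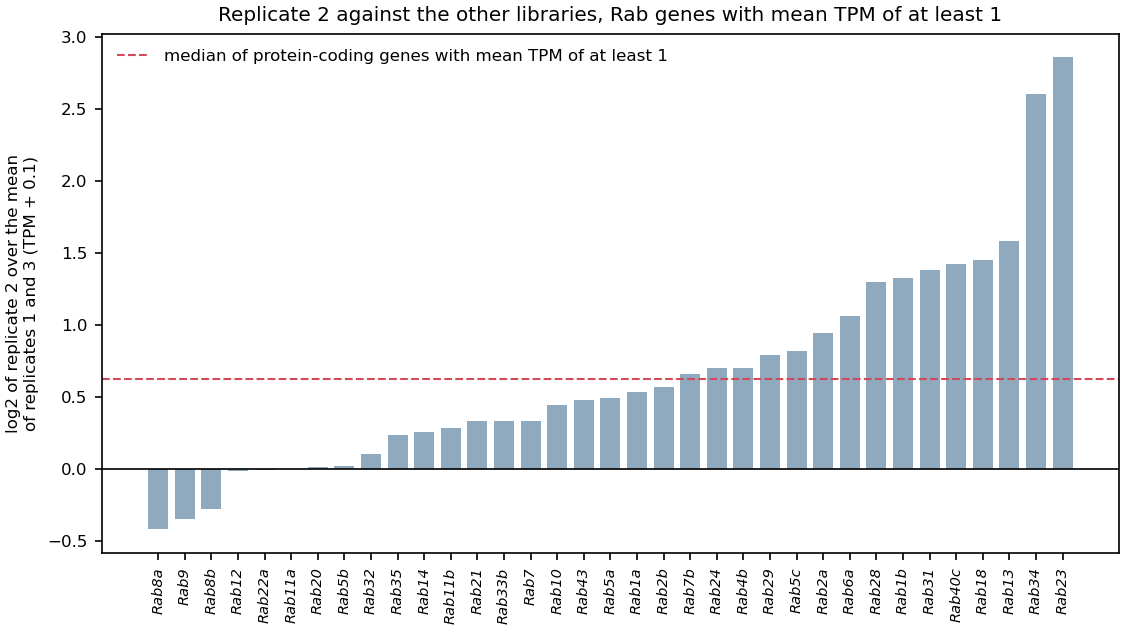
Log2 of replicate 2 over the mean of replicates 1 and 3 (TPM plus 0.1) for 35 Rab genes (mean TPM of at least 1), ordered by value; the dashed line is the median of protein-coding genes under the same filter, 0.62. Rab23 and Rab34 stand highest at 2.86 and 2.60 and Rab8a lowest at −0.42.

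The authors' kallisto tables, summed per gene, gave other levels for several members. The ratio of kallisto to aligned mean TPM was above 1.5 for 13 of the 35 Rab genes and below the inverse of 1.5 for 1, Rab24, with a median of 1.20 that equalled the 1.20 of protein-coding genes. Rab34 stood at 25.01 ± 11.8 TPM with kallisto and 2.67 ± 3.01 in the aligned tables (SD, n = 3). Of its kallisto mean, 21.9 TPM lay in a retained-intron transcript of 352 bases, Rab34-207, listed at 0 in the aligned tables. Rab9 had 39.1 ± 11.8 against 11.2 ± 1.57 TPM, Rab7b 46.5 ± 12.8 against 14.0 ± 3.998, and Rab11a 97.6 ± 20.8 against 35.1 ± 2.83. For these 4 genes the ranges of the 3 libraries did not overlap between the tables. At the top of the order, Rab12 had 136 and Rab14 133 TPM with kallisto, so that the lead of Rab14 did not hold there. Rab3c and Rab9b, without a count in the aligned tables, had mean kallisto levels of 3.81 and 3.96 TPM. Detection of Rab3c and Rab9b thus depended on the table used, whereas Rab17 was listed at 0 in both.

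**Figure D5:**
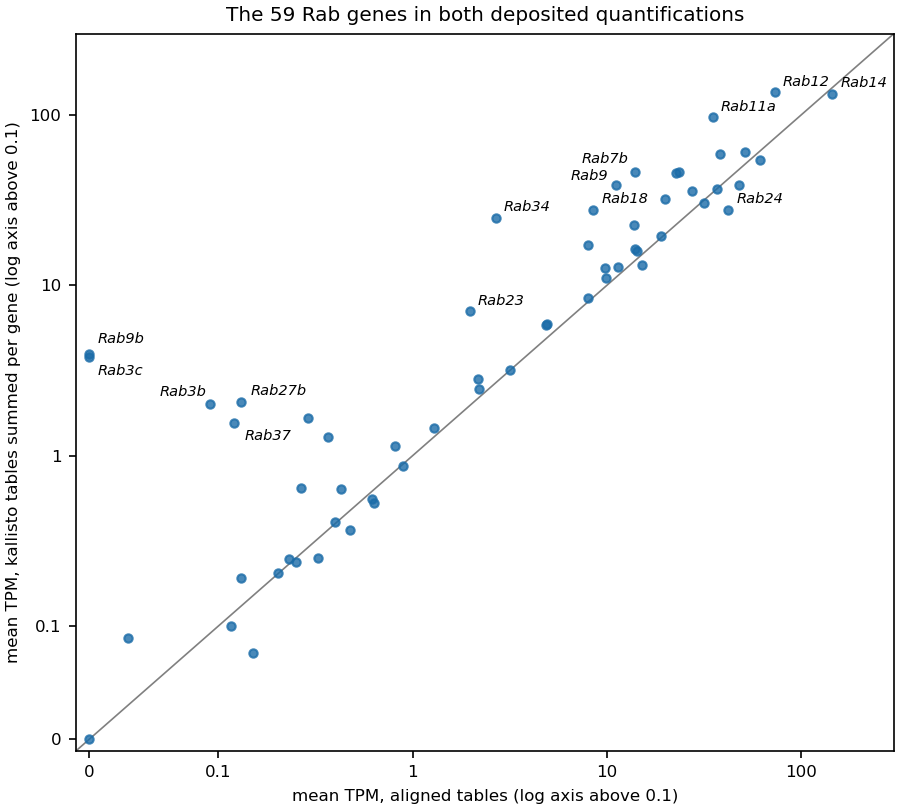
Mean TPM over 3 libraries of the 59 Rab genes in the aligned tables (horizontal) and in the kallisto tables summed per gene (vertical), on axes that are logarithmic above 0.1; the line marks equal values. Rab3b, Rab27b, Rab37, Rab34, Rab9, Rab7b, Rab18 and Rab23 are among the members above the line, and Rab9b and Rab3c are at 0 on the horizontal axis and near 4 on the vertical one.

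Read sharing with neighbours limits some levels, since the strand setting of the counting is not given in the sources used here. Another annotated gene overlaps 32 of the 59 Rab genes, and for 17 an overlapping gene had a mean TPM of at least 1. Rab20 shares 2272 bases with Gm20100, an unverified transcript on the same strand at 53.6 ± 6.15 TPM (SD, n = 3), and 782 bases with E230013L22Rik on the opposite strand at 28.6 ± 3.71 TPM. Rab7 overlaps Gm44187 on its own strand, at 32.4 ± 10.1 TPM, and Rab24 overlaps Prelid1 on the opposite strand, at 14.9 ± 8.32 TPM. Rab37 shares 17779 bases with Cd300lf, a myeloid receptor gene on the opposite strand at 72.1 ± 28.1 TPM. Rab37 itself had 2, 4 and 0 aligned counts in replicates 1, 2 and 3, but 63.4, 79.9 and 104.8 counts with kallisto. Rab43 overlaps Gm44423 and 9930120I10Rik on its own strand, at 17.2 ± 4.80 and 19.6 ± 7.61 TPM. It also shares 23304 bases with Gm45140, a protein-coding gene on that strand at 2.58 TPM. The levels of Rab7, Rab20, Rab24 and Rab43, and those of Rab4a with Gm20388 and Rab26 with Traf7, are uncertain by what the neighbours share. So are those of close paralogs such as Rab1a and Rab1b.

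Genes that act on Rab proteins were taken from 4 lists, and the same protein-coding background of 39.1% at a TPM of at least 1 in every library applies to them. Of 7 genes for prenylation and GDP dissociation inhibition, 6 passed. Gdi2, a GDP dissociation inhibitor, had 22.14, 56.30 and 39.44 TPM, and Rabggtb, a subunit of the Rab prenyl transferase, had 26.05, 23.36 and 24.31 TPM. Chml was lowest at 1.10, 2.06 and 2.55 TPM, and Rabac1, named after its values were seen, missed the threshold in replicate 1 with 0.86 TPM. Of 33 exchange factors, 28 passed. Dennd1a, which acts on Rab35, was highest at 273.13, 247.15 and 252.56 TPM, above every library of every Rab gene, and Ric1, which acts on Rab6, had 209.72, 199.74 and 209.84 TPM. Madd, which acts on Rab3 and Rab27, followed at 109.14, 158.88 and 77.56 TPM, while Dennd5b was lowest at 0.02, 0.21 and 0.03 TPM.

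Of 34 GTPase-activating proteins, 26 passed, led by Tbc1d2b, which acts in endosomal traffic, at 118.55, 136.75 and 127.52 TPM. Tbc1d13, at 70.20, 92.56 and 37.76 TPM, and Tbc1d1, at 50.98, 41.88 and 62.89 TPM, came next. Tbc1d10c was the lowest detected gene at 0.12, 0.22 and 0.17 TPM and Sgsm1 was undetected. Of 43 effectors, 29 passed. Appl2, an early endosomal adaptor, had 157.45, 214.44 and 200.41 TPM, Rab11fip1, a Rab11 effector, had 90.27, 97.68 and 130.57 TPM, and Eea1, the Rab5 tether, had 86.65, 103.92 and 123.63 TPM. Sytl4 was the lowest detected effector, with 0, 8 and 0 counts. The 9 undetected effectors were Exph5, Mlph, Myrip, Rims1, Rims2, Rph3a, Rph3al, Sytl1 and Sytl5, which are known as partners of Rab3 or Rab27. Other Rab27 partners on the list were detected, among them Sytl4 and Unc13d. Unc13d, named after its values were seen, had 11.05, 19.16 and 11.24 TPM. In the kallisto tables some undetected partners had values, with mean levels of 2.59 TPM for Exph5, 1.61 for Mlph, 1.15 for Rims2 and 1.29 for Sgsm1. The medians of the mean TPM were 10.5 for prenylation and inhibitors, 13.8 for exchange factors, 11.3 for GTPase-activating proteins and 5.48 for effectors.

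Promoter letters from RefSeq (GRCm38.p6), matched by symbol, were held for 48 of the 59 Rab genes and described as the 250 bases before the most upstream listed start. CpG dinucleotides numbered a median of 16 in the Rab windows, against 10 in the windows of 16519 protein-coding genes. In the 29 matched Rab genes with a TPM of at least 1 in every library the median was 20 and in the other 19 it was 10. Protein-coding genes were split by another rule, a mean TPM of at least 1, and their medians were 16 above it and 4 below it. A difference in this direction was thus shared with other genes, while its size cannot be compared between the rules. The windows of Rab14 and of the undetected Rab33a are printed because they belong to the highest member and the highest undetected member with a window outside its own annotated gene. They lie at chr2:35201121-35201370 (− strand) and chrX:48519035-48519284 (+ strand), and capitals mark CpG, of which they hold 23 and 7.
Rab14 promoter: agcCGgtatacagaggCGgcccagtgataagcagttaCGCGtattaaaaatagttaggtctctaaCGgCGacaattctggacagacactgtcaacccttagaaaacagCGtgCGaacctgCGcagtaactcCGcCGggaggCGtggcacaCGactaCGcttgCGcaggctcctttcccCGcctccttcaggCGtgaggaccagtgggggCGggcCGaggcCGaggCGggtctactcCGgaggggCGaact
Rab33a promoter: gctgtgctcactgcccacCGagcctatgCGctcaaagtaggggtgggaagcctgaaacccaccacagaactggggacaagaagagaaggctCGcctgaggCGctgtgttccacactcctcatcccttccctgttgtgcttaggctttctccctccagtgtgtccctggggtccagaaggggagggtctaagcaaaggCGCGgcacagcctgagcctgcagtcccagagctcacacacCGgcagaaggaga

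Motifs were searched on both strands of the same windows. The TATA box letters TATAAA were in 8.33% of the Rab windows and in 11.9% of all windows. The E-box CACGTG, a palindrome that lysosomal gene regulators of the MiT family can bind, was in 8.33% of the Rab windows and in 6.81% of all windows. Neither motif contains the other, and a match is a description of the window only.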

How the data were processed

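Expected counts per gene and transcript were deposited by the authors in the layout that RSEM writes, made from reads aligned to the mm10 transcriptome (GENCODE M21), per the file notes. In the same tables the authors deposited TPM, both the maximum-likelihood estimate and the posterior mean, and further transcript tables hold TPM in the layout of kallisto. Aligner, strand setting and tool releases: not given in the sources used here. Rows naming no gene (1.94, 0.269 and 0.386% of counts) were left out.

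The members and lists were chosen with earlier results of these data known. All members could be named, and of each partner list the 3 highest, the lowest detected and all undetected genes. The values of 1 gene that this rule selects are not reported here. All samples formed 1 group, so levels were compared within libraries. The class ratio was tested with limma 3.58.1 (R 4.3.3) after adding 0.1 TPM and taking log2, over all genes whose classes averaged 5 TPM or more in sum, with Benjamini-Hochberg adjustment, and the method was tested on simulated data. TMM factors came from edgeR 4.0.16. Floors of 3 counts cover counting error only, and correspond to 0.238, 0.174 and 0.176 CPM. Tables were handled with Python 3.11.15 and pandas 2.3.3.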

Additional observations from a re-analysis of the deposited data

Results flagged for a closer look

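Counts were assigned in every library to genes annotated on the opposite strand of Rab genes, in rows that the comparisons above did not use. Rab10os, annotated antisense to Rab10 and sharing 2950 bases with it, had a mean of 23.7 TPM, from 25.45, 22.82 and 22.78 TPM in replicates 1, 2 and 3, against 36.8 TPM for Rab10 itself. Rab26os, antisense to Rab26, had a mean of 4.43 TPM, from 3.53, 4.53 and 5.23 TPM and 13, 6 and 9 counts, against 0.813 TPM for Rab26. Both were flagged because they exceeded 3 counts in each library. Because the strand setting of the counting is not given, reads of these genes and of their sense partners cannot be told apart.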

How the results depend on the processing

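The number of Rab genes at a TPM of at least 1 in every library was 32 and ranged from 32 to 41 over 8 alternatives. Leaving out replicates kept the family sum between 775 and 904 TPM, the median Rab TPM between 2.51 and 4.48, and the count at a TPM of at least 10 between 17 and 22. On kallisto TPM the family sum was 1175 TPM (main value 842), the median 6.29 TPM and the coefficient of variation 0.214. With TPM scaled to protein-coding genes these were 2745 TPM, 11.8 TPM and 0.237, and 28 genes reached 10 TPM. In CPM the family summed to 1533 and the coefficient of variation was 0.267. Restricting the median to members with a mean TPM of at least 1 gave 14.4 TPM.

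The median coefficient of variation of 0.275 became 0.270 with posterior mean TPM, 0.231 with TMM-scaled CPM, and 0.200 to 0.327 without 1 replicate. The median log2 of replicate 2 over the others, 0.49, became 0.47 with posterior means, 0.17 with kallisto, 0.21 with TPM scaled to protein-coding genes, 0.25 in CPM, 0.41 to 0.59 without another replicate, and reversed to −0.016 with TMM-scaled CPM. A filter on replicates 1 and 3, chosen after seeing the data, gave 0.46.

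Calls toward retained-intron transcripts numbered 3 of 10. They were 6 of 12 with kallisto TPM, where 37.2% of all genes tested were called so, and 2 of 10 on expected counts, without replicate 1 and without replicate 3. Calls toward protein-coding transcripts numbered 2 of 10. They were 4 of 15 with a minimum TPM of 1 (23.7% of all genes tested) and 5 of 10 on expected counts (55.5%). On expected counts the Rab8a ratio reversed to −2.07. Rab12 was called toward protein-coding transcripts on expected counts and toward retained-intron transcripts with kallisto TPM. The number of paralog pairs of 1 sign was 12 to 16 over all 8 alternatives, and none of the pairs with 1 sign in the main tables reversed under them. Single Rab levels moved by more than 1 SD for 30 of 59 members in CPM, 56 with TPM scaled to protein-coding genes, 28 with kallisto and 21 with posterior means. Counts of partner genes stayed within 1.5 times the values given. No paired analysis was possible because the samples form 1 group. Depth limits the 6 undetected members and those with under 10 counts.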

Other observations

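Processed pseudogenes named after Rab genes had little RNA in the aligned tables. Rab11b-ps2 had 0.50, 2.31 and 0.51 TPM in replicates 1, 2 and 3, and Rab7-ps1 had 0, 0.53 and 0.49 TPM. Rab5a-ps and Rab9b-ps1 were listed at 0 in all 3 libraries. The lowest-ranked members also differed in how the posterior mean TPM treated them: Rab17, with no count, had a mean posterior value of 0.52 TPM, and Rab25, with 0, 1 and 0 counts, had 1.07 TPM.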
